A study of Mus musculus with 11 samples.

Results

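The thioredoxin system genes were the 8 genes Txn1, Txn2, Txnrd1, Txnrd2, Txnrd3, Txndc2, Txndc8 and Txnip, taken by symbol from a table of 24411 genes, and all 8 were in it. They were read as a spermatid group (Txndc2, Txndc8 and Txnrd3) and a general group (Txn1, Txn2, Txnrd1, Txnrd2 and Txnip). RNA was sequenced from mouse testes at 20 weeks of age, from 4 wild-type C57Bl/6J samples (WT), 4 samples with a global knockout of Aco1 (Irp1-/-) and 3 with a global knockout of Ireb2 (Irp2-/-). Both genes encode iron regulatory proteins, which bind iron-responsive elements in target mRNAs. Knockout was in every cell of the animal, so the samples do not separate an action within germ cells from one elsewhere. Per the paper, the Irp1-/- line came from founders of C57Bl/6J background, and WT controls were littermates from heterozygous crosses. The paper names no background for Irp2-/- mice. The samples were numbered within a genotype, and nothing in the labels states outright that each number is a separate mouse. The p-values set each difference between groups against the spread between these samples.

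Thioredoxins are small proteins whose pair of cysteines reduces disulfide bonds in other proteins, and thioredoxin reductases restore them with electrons from NADPH. Reductases are selenoproteins: a TGA codon near the end of the coding sequence, elsewhere a stop, is read as selenocysteine. In the testis, elongating spermatids carry thioredoxins of their own, and a reductase with an added glutaredoxin-like domain, beside the thioredoxins found in most cells. Txnip, an alpha-arrestin, binds reduced thioredoxin and also lowers glucose uptake.

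Total counts ranged from 15902473 to 22451417 per sample. Levels are in CPM, counts scaled to a common library size. Aco1 was at 11.8 ± 1.36 CPM (SD, n = 4) in WT and 8.58 ± 0.622 (n = 4) in Irp1-/- samples, and Ireb2 was at 140 ± 5.84 (n = 4) in WT and 62.2 ± 0.514 (n = 3) in Irp2-/- samples, so each targeted transcript was reduced but still counted. The 8 elongating spermatid markers, among them the protamine genes Prm1 and Prm2, summed to 19487 to 24866 CPM over the 11 samples, and the 5 epididymis markers summed to at most 0.251 CPM with Lcn5 at 0 throughout. The column name of Irp1-/- replicate 6 carried the letter R where the others carried L, and the meaning of the letter is not given in the sources used here.

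The thioredoxin fold members share a single active-site motif, and its codons are shown because all 4 genes carry it. Sequences are from the GENCODE M21 transcript with the longest coding sequence, on GRCm38, 5′ to 3′ on the coding strand, with the codons of the active site (cysteine, glycine, proline, cysteine) in capitals.
Txn1: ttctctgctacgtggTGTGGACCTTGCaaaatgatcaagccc
Txn2: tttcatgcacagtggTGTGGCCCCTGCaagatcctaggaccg
Txndc2: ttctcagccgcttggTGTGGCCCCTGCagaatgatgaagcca
Txndc8: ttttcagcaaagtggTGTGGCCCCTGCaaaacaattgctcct

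The capitals lie at chr4:57951821-57951832 in exon 2 of 5 of Txn1, chr15:77924651-77924662 in exon 2 of 3 of Txn2, chr17:65637741-65637752 in exon 3 of 3 of Txndc2 and chr4:58007099-58007110 in exon 2 of 6 of Txndc8, all on the minus strand and all coding. Each coding sequence held the motif once in frame. Txn2, Txndc2 and Txndc8 spelled the 12 bases identically, and Txn1 spelled them differently, as printed. No such motif was found in the coding sequence of Txnip, which is no thioredoxin. The site began at codon 32 of 106 in Txn1 (stop codon counted) and at codon 477 of 551 in Txndc2, with 71 codons after it in both, the stop included, so Txndc2 differed from Txn1 by a long added stretch upstream of the thioredoxin fold. That stretch repeats. The 15-base word in capitals below occurred 9 times in frame, every 15 codons from codon 180 to codon 300 (chr17:65638269-65638643), and the first and second repeat units are shown because 9.11% of the transcript's 50-base words occur in it more than once.
Txndc2 repeat, first: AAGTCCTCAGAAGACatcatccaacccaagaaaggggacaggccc
Txndc2 repeat, second: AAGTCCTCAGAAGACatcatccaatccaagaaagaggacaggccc

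The 3 reductases are told apart from the thioredoxins by a redox site beside the FAD-binding part and by the selenocysteine codon. The redox site is in capitals.
Txnrd1: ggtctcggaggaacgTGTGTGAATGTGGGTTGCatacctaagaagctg
Txnrd2: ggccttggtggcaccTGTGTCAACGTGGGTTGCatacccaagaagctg
Txnrd3: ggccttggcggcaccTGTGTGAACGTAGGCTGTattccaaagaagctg

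These sites lie at chr10:82877280-82877297 (exon 5 of 15), chr16:18437528-18437545 (exon 4 of 17) and chr6:89656042-89656059 (exon 6 of 16), on the plus strand. The 3′ ends of the coding sequences follow, with a cysteine codon and the TGA annotated as selenocysteine in capitals. In all 3 the TGA was followed by a single sense codon and the true stop.
Txnrd1: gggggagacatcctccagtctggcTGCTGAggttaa
Txnrd2: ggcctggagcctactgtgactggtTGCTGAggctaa
Txnrd3: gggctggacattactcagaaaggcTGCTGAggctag

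Txnrd3 also held a glutaredoxin-like site at codon 48 of 616 (chr6:89644385-89644396, exon 1 of 16), whose 4 codons read cysteine, proline, histidine and serine and are in capitals.
Txnrd3: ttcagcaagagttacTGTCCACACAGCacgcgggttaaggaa

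In WT testis the 3 spermatid members stood above all 5 general ones. The comparison across genes was made in CPM per kb of the longest coding transcript, a level and not a difference. Txndc2, a thioredoxin of the fibrous sheath of the sperm tail, was highest at 492 ± 13.1 (SD, n = 4), Txnrd3 was at 210 ± 7.10 and Txndc8, a thioredoxin of the acrosome region, was at 119 ± 2.10. The mitochondrial thioredoxin Txn2 followed at 31.0 ± 0.980, then Txnip at 19.9 ± 3.16, the cytosolic reductase Txnrd1 at 10.4 ± 0.844, the cytosolic thioredoxin Txn1 at 7.65 ± 0.374 and the mitochondrial reductase Txnrd2 at 0.962 ± 0.198 CPM per kb.

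Each gene was above the next in 4 of 4 WT samples with no overlap of ranges, and the order of the group means was the same in Irp1-/- and Irp2-/- testes. Within a sample, each gene was above the next in 11 of 11 samples. The 2 closest neighbours were Txnrd1 and Txn1, 1.36 times apart in WT. Over merged exons in place of 1 transcript, an alternative added after the data were seen, Txnip passed Txn2 (17.997 against 15.1 CPM per kb) and Txn1 passed Txnrd1 (7.65 against 5.32), while the 3 spermatid members stayed on top. By CPM, Txndc2 ranked 95th and Txnrd3 228th of 24411 genes in WT. Txndc8 ranked 3127th, Txn2 3551st, Txnip 3867th, Txnrd1 5063rd, Txn1 10032nd and Txnrd2 12852nd. Without division by length Txndc8 was thus near the general members, at a mean of 74.1 CPM in WT against 63.4 for Txn2. The transcripts used were 620 bases long for Txndc8 and 2049 for Txn2.

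**Figure D1:**
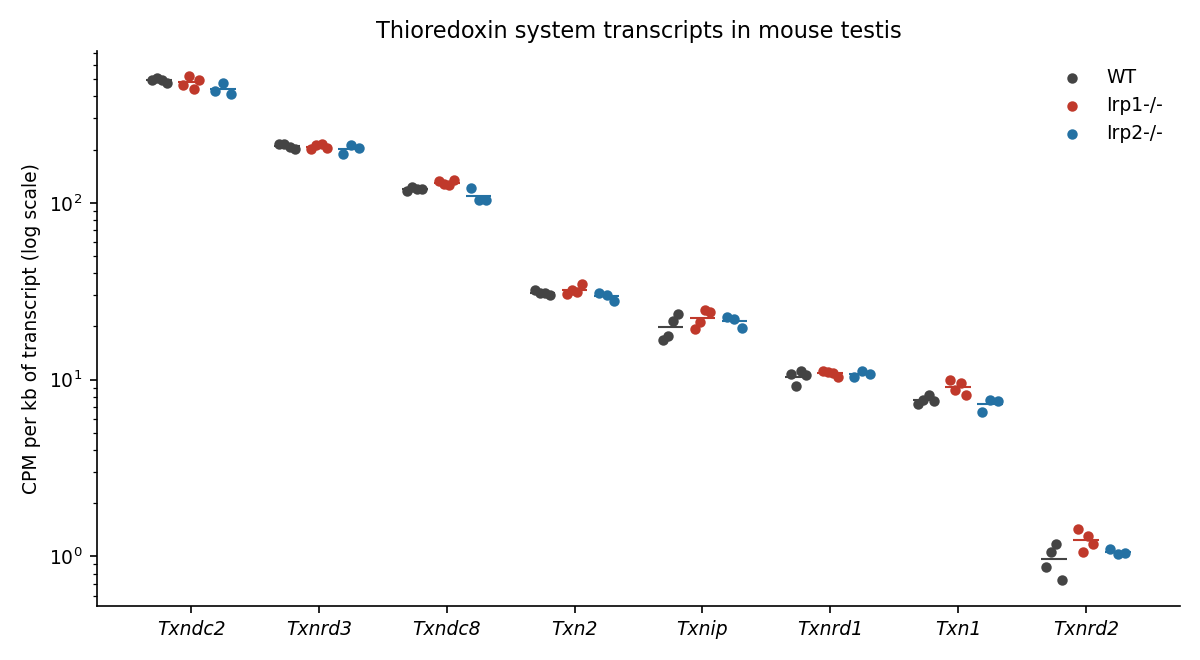
Level of the 8 genes in each of the 11 samples in CPM per kb of transcript on a log axis, with points for samples, horizontal lines for group means and colours for WT, Irp1-/- and Irp2-/-. Txndc2, Txnrd3 and Txndc8 lie above the other 5 in all 3 genotypes, and Txnrd2 lies lowest.

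Summed over its 3 genes, the spermatid group took 0.157% ± 0.00293 (SD, n = 4) of all WT counts. Per kb, its sum was 11.8 ± 0.795 times the general group's in WT, 10.8 ± 0.667 (n = 4) in Irp1-/- and 10.7 ± 0.367 (n = 3) in Irp2-/- testes. The sample ranges of this ratio overlapped between genotypes, from 10.995 to 12.7 in WT, 10.02 to 11.6 in Irp1-/- and 10.3 to 11.02 in Irp2-/-. The genotypes were not compared by a test on this ratio. In WT, Txnrd3 exceeded Txnrd1 20.3 ± 2.24 times per kb, Txndc2 exceeded Txndc8 4.12 ± 0.115 times and Txn2 exceeded Txn1 4.06 ± 0.290 times. Over merged exons these ratios were 39.7, 4.26 and 1.98. These are ratios of bulk RNA levels, in which fewer cells of a type and less RNA per cell cannot be told apart.

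The comparison of each knockout with WT asks whether loss of an iron regulatory protein moved these transcripts. Counts were tested with edgeR over all genes that passed a filter on low counts, with Benjamini-Hochberg adjustment, and a gene was called at an adjusted p under 0.05. All 8 members passed the filter in each comparison. In Irp1-/- against WT, 0 of 8 members were called, where 1.02% of the 16002 genes tested were (0.581% higher, 0.444% lower). There 3 members, all higher, had an unadjusted p under 0.05, as had 12.1% of all genes (6.69% higher), and 1 member did not overlap between the groups, as 6.63% of all genes did not. In Irp2-/- against WT, 0 of 8 were called, where 1.21% of 16154 genes were (0.371% higher, 0.842% lower). There 2 members, both lower, had an unadjusted p under 0.05, as had 9.42% of all genes (4.69% higher, the rest lower). Between those groups, 0 members did not overlap, against 9.23% of all genes (4.65% higher). DESeq2 also called 0 members in both, of 7 to which it gave an adjusted p in Irp1-/- against WT (Txnrd2 had none) and of 8 in Irp2-/- against WT. The third comparison, Irp1-/- against Irp2-/-, tests whether the knockouts differ, and it shares its samples with the other two. There 1 of 8 members, Txndc8, was called, higher in Irp1-/- (2.92% of 16281 genes were called higher, 1.76% lower and 4.69% either way). There 2 members, both higher, had an unadjusted p under 0.05 (16.3% of all genes, 8.85% higher), and the same 2, Txndc8 and Txn1, did not overlap between the groups (15.2% of all genes, 7.5% higher).

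Txndc8 was at 72.5, 75.7, 73.8 and 74.3 CPM in WT replicates 1 to 4. It was at 82.0, 78.7, 78.0 and 83.2 CPM in Irp1-/- replicates 1, 2, 6 and 7, and at 74.8, 63.9 and 64.7 CPM in Irp2-/- replicates 1 to 3. All 4 Irp1-/- samples were above all 7 others, and Irp2-/- replicate 1 lay within the WT range while the other two lay below it. Among all genes, 3.21% were higher in Irp1-/- than in WT without overlap. Between the knockouts the log2 fold change was 0.25 (SE 0.058, 95% interval 0.13 to 0.37, edgeR adjusted p = 0.0134), a fold of 1.19 (1.09 to 1.29). Against WT the log2 fold change was 0.12 (SE 0.042, edgeR adjusted p = 0.211) in Irp1-/- and -0.12 (SE 0.056, edgeR adjusted p = 0.477) in Irp2-/-.

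The call between the knockouts was lost without Irp1-/- replicate 1 (edgeR adjusted p = 0.0621), without Irp2-/- replicate 2 (0.126) and without Irp2-/- replicate 3 (0.0578). It was kept without Irp1-/- replicate 6, the sample with the other letter (0.0146). Without Irp2-/- replicate 1 it was 0.32 on the log2 scale, and Txndc8 was then also called lower in Irp2-/- than in WT (log2 fold change -0.20, edgeR adjusted p = 0.048).

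Txndc2 was at 921, 942, 917 and 883 CPM in WT, at 859, 971, 818 and 922 CPM in Irp1-/- and at 799, 890 and 772 CPM in Irp2-/- samples, in replicate order. Irp2-/- replicate 2 lay inside the WT range, the other two Irp2-/- samples lay below it, and the Irp1-/- samples spread on both sides. The log2 fold change of Irp2-/- against WT was -0.16 (SE 0.049, 95% interval -0.26 to -0.056, edgeR unadjusted p = 0.00378, adjusted p = 0.157), and that of Irp1-/- against WT was -0.04 (interval -0.13 to 0.052). Without Irp2-/- replicate 2 the adjusted p of the former was 0.0504.

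Txnrd3 was at 610, 613, 584 and 572 CPM in WT, at 572, 601, 613 and 576 CPM in Irp1-/- and at 536, 598 and 582 CPM in Irp2-/- samples. Only Irp2-/- replicate 1 left the WT range. Its log2 fold change was -0.01 (95% interval -0.088 to 0.067) in Irp1-/- and -0.05 (-0.15 to 0.044) in Irp2-/- against WT, and both intervals include 0.

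**Figure D2:**
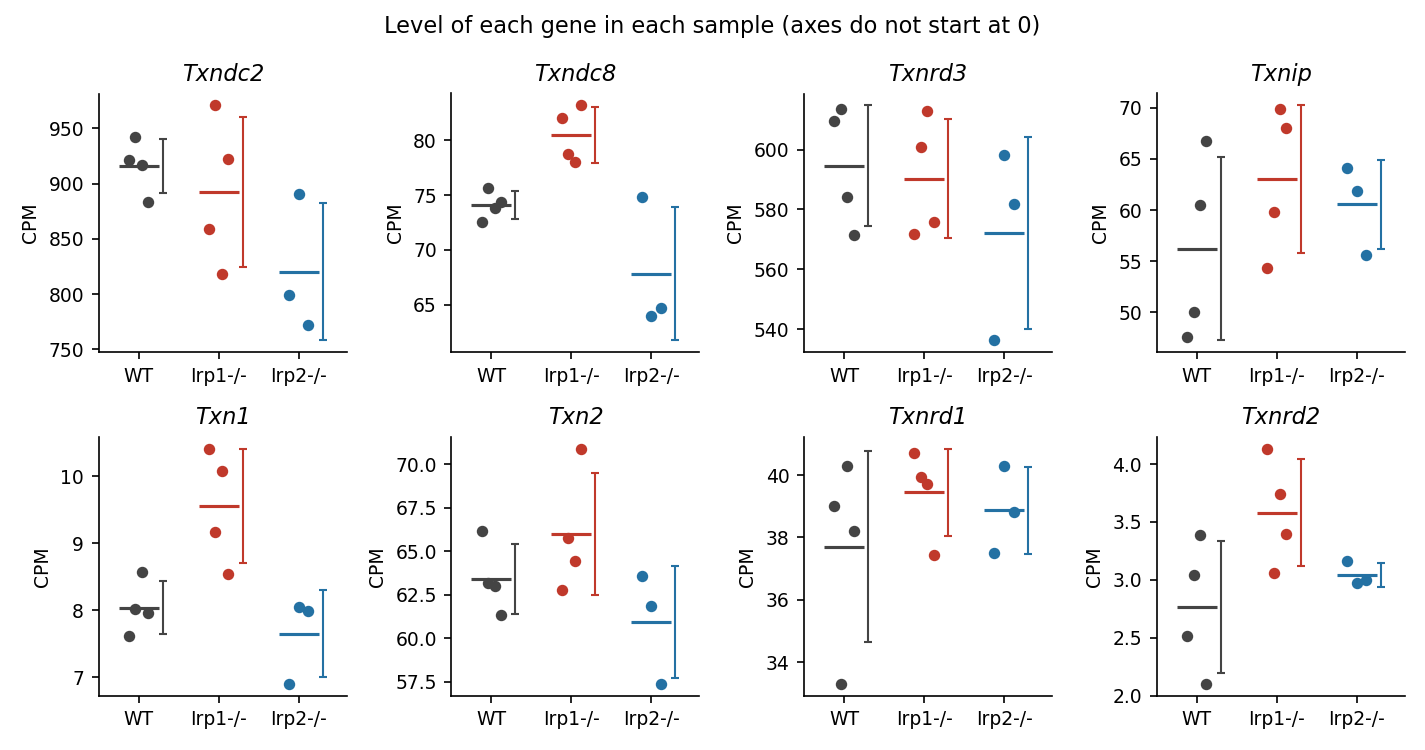
CPM of each of the 8 genes in each sample, with points for samples, a line for the group mean and a bar of 1 SD each way, on axes that do not start at 0. The 4 Irp1-/- points of Txndc8, from 78.0 to 83.2 CPM, lie above every WT and Irp2-/- point, and those of Txn1 lie above every Irp2-/- point.

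Markers of the cell types of the testis were read beside these values. Of 8 elongating spermatid markers, 0 had a log2 fold change above 0 in Irp2-/- against WT, the median was -0.09, and none was called. Their sum was 22963.7 to 23884.8 CPM in WT, and 23567.6, 22587.2 and 19487.4 CPM in Irp2-/- replicates 1, 2 and 3. Other lists shifted in that comparison as well. Round spermatid (1 of 6 above 0, median -0.04) and spermatocyte markers (2 of 6, -0.03) were mostly lower. Leydig cell (4 of 6, 0.22), macrophage (5 of 6, 0.16), peritubular myoid (4 of 4, 0.12) and Sertoli cell markers (4 of 6, 0.03) were mostly higher. None of these was called. In Irp1-/- against Irp2-/- testes, 6 of 6 round spermatid markers had a log2 fold change above 0 (median 0.03, none called), and so had 5 of 8 elongating spermatid markers (median 0.06, none called). All 6 Leydig cell markers were above 0 there too, with a median of 0.27, and Insl3 and Hsd3b1 were called, as was the Sertoli cell marker Rhox5 (log2 fold change 0.36, edgeR adjusted p = 0.0394, 4 of 6 Sertoli markers above 0). In Irp1-/- against WT all 6 Sertoli cell markers were above 0 and Clu was called (0.16, edgeR adjusted p = 0.0473). The Sertoli sum did not overlap there, at 1063.5 to 1189.6 CPM in Irp1-/- against 952.1 to 1026.5 CPM in WT. Clu made up most of that sum, at means of 932 CPM in Irp1-/- and 832 CPM in WT. The sum of 6 spermatocyte markers was lower without overlap, at 1101.7 to 1129.6 CPM against 1150.6 to 1195.1 CPM, with none of them called. All 6 Leydig cell markers were above 0 there too (median 0.40, none called). Of the spermatid markers in Irp1-/- against WT, 5 of 8 elongating ones were below 0 (median -0.04, none called). Of the round spermatid markers 3 of 6 were above 0 (median 0.002, none called). The part of these shifts in the values of Txndc8 and Txndc2 was not tested.

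Txn1, the cytosolic thioredoxin, was at 7.61, 8.02, 8.56 and 7.96 CPM in WT, at 10.4, 9.17, 10.1 and 8.55 CPM in Irp1-/- and at 6.90, 8.05 and 7.99 CPM in Irp2-/- samples. All 4 Irp1-/- samples were above all 3 Irp2-/- samples, and 3 of them were above all WT samples. Its log2 fold change was 0.33 (SE 0.11, edgeR adjusted p = 0.0903) between the knockouts and 0.25 (SE 0.097, edgeR adjusted p = 0.256) in Irp1-/- against WT, and neither was called. It was counted 129 to 204 times per sample.

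Txn2, the mitochondrial thioredoxin, was at 66.2, 63.2, 63.0 and 61.3 CPM in WT, at 62.8, 65.8, 64.5 and 70.9 CPM in Irp1-/- and at 63.6, 61.9 and 57.4 CPM in Irp2-/- samples, with overlap between all 3 groups. Its log2 fold change was 0.06 (95% interval -0.041 to 0.15) in Irp1-/- and -0.05 (-0.16 to 0.056) in Irp2-/- against WT.

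Txnrd1, the cytosolic reductase, was at 39.0, 33.3, 40.3 and 38.2 CPM in WT, at 40.7, 39.9, 39.7 and 37.5 CPM in Irp1-/- and at 37.5, 40.3 and 38.8 CPM in Irp2-/- samples. WT replicate 2 was lowest and the other 10 samples lay between 37.5 and 40.7. The log2 fold change was 0.07 (95% interval -0.050 to 0.18) in Irp1-/- and 0.04 (-0.090 to 0.18) in Irp2-/- against WT. Eid3, a gene of the same strand inside a Txnrd1 intron, shares no exon bases with it.

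Txnrd2, the mitochondrial reductase, was counted only 38 to 79 times per sample. It was at 2.52, 3.04, 3.39 and 2.10 CPM in WT, at 4.13, 3.06, 3.74 and 3.39 CPM in Irp1-/- and at 3.16, 2.97 and 2.998 CPM in Irp2-/- samples. The groups overlapped, and the log2 fold change of Irp1-/- against WT was 0.38 (95% interval 0.036 to 0.71, edgeR unadjusted p = 0.0313, adjusted p = 0.343).

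Txnip, which binds thioredoxin, was at 47.6, 50.02, 60.5 and 66.7 CPM in WT, at 54.4, 59.8, 69.9 and 68.0 CPM in Irp1-/- and at 64.1, 61.9 and 55.6 CPM in Irp2-/- samples. WT replicates 1 and 2 were lowest of all 11, and the groups overlapped. The log2 fold change was 0.16 (95% interval -0.17 to 0.49) in Irp1-/- and 0.11 (-0.17 to 0.39) in Irp2-/- against WT. The 6 Leydig cell markers summed to 708.3, 683.3, 966.2 and 912.5 CPM in WT replicates 1 to 4, with the same pair of samples low. Their part in the Txnip values was not tested. The antisense gene Gm15441 overlaps Txnip exons over 606 bases and shares 18.4% of its 50-base words. It had 1558 counts over all 11 samples against 805 to 1440 for Txnip in each, and whether the counting used strand is not stated, so the Txnip values are uncertain by that overlap.

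**Figure D3:**
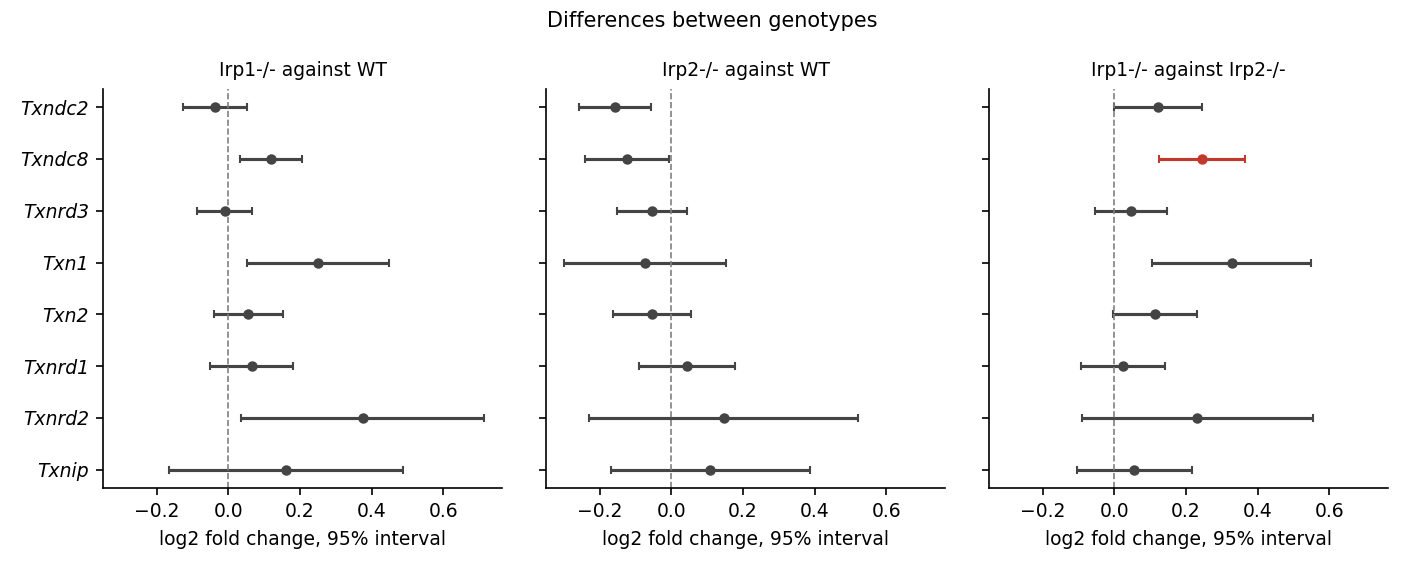
Log2 fold change of each gene with its 95% interval from edgeR in the 3 comparisons, with 0 as a dashed line and called genes in red. Txndc8 between the knockouts is the single red point, and the widest interval in each comparison is that of Txnrd2, which reaches from 0.036 to 0.71 in Irp1-/- against WT.

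Over the 8 genes the median log2 fold change was 0.09 in Irp1-/- against WT, with 6 of 8 above 0, and -0.05 in Irp2-/- against WT, with 3 of 8 above 0. Between the knockouts it was 0.12, with 8 of 8 above 0. Over all genes tested the medians were -0.0008, 0.0033 and -0.0019, and 49.7%, 51.3% and 49.4% were above 0. Genes are not replicates of a condition, and no test was made over the 8.

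Txn1 and Txndc8 are next to each other among the genes tested, both on the minus strand of chromosome 4, at chr4:57943373-57956411 and chr4:57984027-58009124, 27.6 kb apart. Aco1, the gene deleted in Irp1-/- mice, lies on the same chromosome at chr4:40143081-40198338, 17.7 Mb from Txn1 and 151 tested genes away. The tested neighbour beyond Txn1, Akap2, an anchor protein for protein kinase A, had a log2 fold change of 0.22 (SE 0.15, edgeR adjusted p = 0.633) in Irp1-/- against WT. The one beyond Txndc8, Svep1, had -0.08 (SE 0.19, edgeR adjusted p = 0.70).

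Of the 10 tested genes on each side of the pair, 2 of 20 were called in Irp1-/- against WT, 0 of 20 in Irp2-/- against WT and 3 of 20 in Irp1-/- against Irp2-/-, where 1.02%, 1.21% and 4.69% of all genes were. Dnajc25 was higher in Irp1-/- than in WT (log2 fold change 0.88, edgeR adjusted p = 3.32e-06), and Gng10 beside it was too (0.33, edgeR adjusted p = 0.0473). Both were also higher than in Irp2-/- testes, and Tmem245 was lower (-0.46, edgeR adjusted p = 0.0498). These 3 were named after their values were seen. Loss of Aco1 and the DNA carried with the deletion on chromosome 4 cannot be told apart in these samples.

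**Figure D4:**
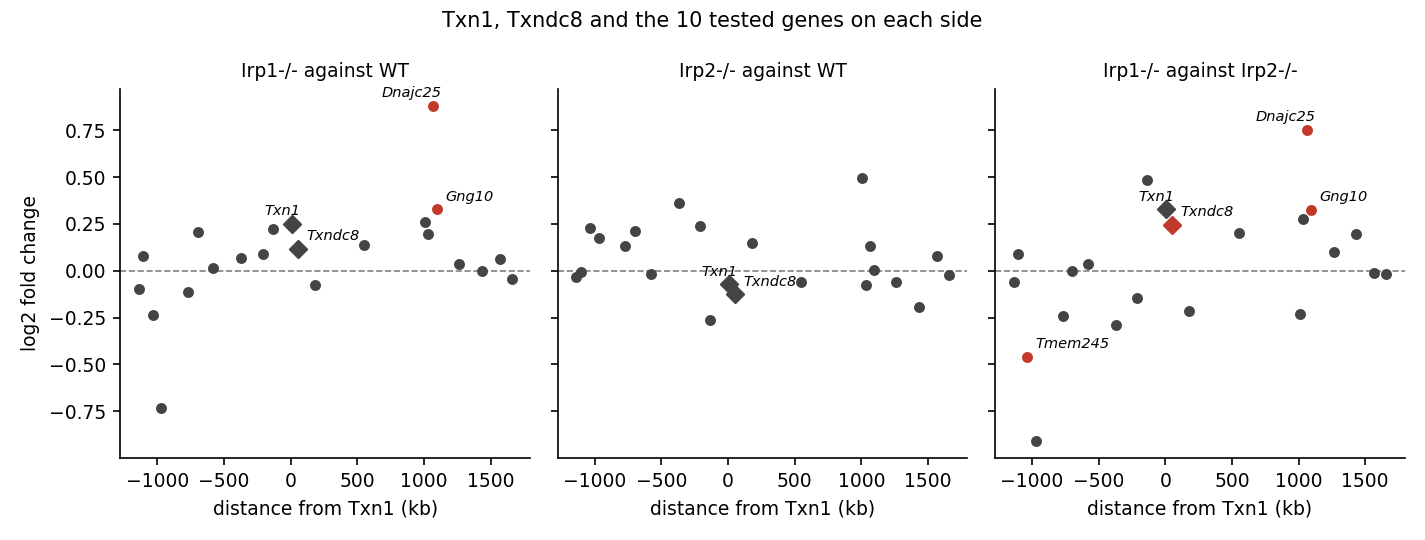
Log2 fold change of Txn1 and Txndc8 (diamonds) and of the 10 tested genes on each side (circles) against the distance of a gene's centre from the left end of Txn1 in kb, for the 3 comparisons, with called genes in red. Dnajc25 and Gng10 are red in both comparisons of Irp1-/-, Txndc8 and Tmem245 in that with Irp2-/-, and no point is red in Irp2-/- against WT.

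The wider pathway was described by 6 lists of related genes. In Irp1-/- against WT 0 of 80 tested genes were called, in Irp2-/- against WT 0 of 80, and in Irp1-/- against Irp2-/- 3 of 81, all 3 higher in Irp1-/-. The last is 3.704%, below the share of all genes called there, which over the 3 comparisons was 1.02%, 1.21% and 4.69%. In the same order 11, 3 and 13 had an unadjusted p under 0.05, which is 13.8%, 3.75% and 16.05%, where 12.1%, 9.42% and 16.3% of all genes had. DESeq2 called 0 against WT, of 73 given an adjusted p in Irp1-/- and 81 in Irp2-/-.

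Among 16 thioredoxin-dependent enzymes and partners, Prdx4, a peroxiredoxin of the endoplasmic reticulum, was the one called. It was at 64.9 to 82.8 CPM in Irp1-/-, 51.2 to 62.4 in Irp2-/- and 64.0 to 69.3 in WT samples, with all Irp1-/- samples above all Irp2-/- ones. The log2 fold change between the knockouts was 0.31 (SE 0.079, edgeR adjusted p = 0.0325). The call was lost without Irp1-/- replicate 1 (0.0797) or 2 (0.0535) and without Irp2-/- replicate 2 (0.0900) or 3 (0.0857). It was also lost with the replicate number as a block (0.0905), a fit in which only replicates 1 and 2 of each knockout bear on the difference. Prdx6 and Prdx5, which reduce peroxides in the cytosol and in mitochondria and peroxisomes, were at 94.9 ± 2.86 and 46.9 ± 1.49 CPM (n = 4) in WT and were not called.

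Among 10 genes of selenoprotein synthesis and selenium supply, which the reductases depend on, Sepp1 (Selenop), the selenium carrier of plasma, was called between the knockouts (log2 fold change 0.21, SE 0.057, edgeR adjusted p = 0.0318). It was at 77.0 to 83.9 CPM in Irp1-/- and 64.6 to 75.4 in Irp2-/- samples, and at 60.6 to 85.1 in WT. The WT samples covered both knockout groups. Its call was lost without Irp1-/- replicate 1 (0.129), 2 (0.0754) or 6 (0.0616), without Irp2-/- replicate 1 (0.0524) or 2 (0.231), and with all 11 samples in 1 fit (0.409). Gpx4, the selenoprotein of the sperm midpiece, was highest of the list at 1175 ± 31.9 CPM in WT, and Sephs2, which makes selenophosphate, was at 215 ± 4.83. Neither was called.

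Among 7 genes of NADPH supply, Idh1, the cytosolic isocitrate dehydrogenase, was called between the knockouts (log2 fold change 0.22, SE 0.057, edgeR adjusted p = 0.0266). It was at 43.2 to 45.1 CPM in Irp1-/- and 36.0 to 40.3 in Irp2-/- samples, and at 30.3 to 47.4 in WT, again a range that covered both. WT replicates 1 and 2 were lowest of the 11 samples for both Sepp1 and Idh1, and low in the summed Leydig cell markers, which ranged from 917.1 to 1117 CPM in Irp1-/- and 708.7 to 918.7 CPM in Irp2-/- samples. The part of these cells in either value was not tested. Its call was lost without Irp1-/- replicate 1 (0.0731), 2 (0.0689) or 6 (0.0612), without Irp2-/- replicate 1 (0.0961) or 2 (0.0991), and with all 11 samples in 1 fit (0.485). Malic enzyme Me1 was at 397 ± 14.6 CPM and the retrogene G6pd2 at 42.8 ± 1.64 CPM in WT, and neither was called.

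No gene was called in the other 3 lists in any of the 3 comparisons. Of 29 thioredoxin-fold relatives, 27 were tested against WT and 28 between the knockouts. Highest per kb was Pdia3, a disulfide isomerase, at 441 ± 2.62 CPM in WT. Its testis-specific relative Pdilt (220 ± 25.5) and Nme8 (208 ± 7.47), a thioredoxin of the sperm tail, followed. Among the relatives tested, the edgeR unadjusted p was under 0.05 for 3, 1 and 2 genes in the 3 comparisons. Of 9 genes of NRF2 and its targets, the transcription factor's inhibitor Keap1 (70.9 ± 1.54 CPM), Gclc (35.1 ± 2.45), the catalytic subunit of the first enzyme of glutathione synthesis, and Nfe2l2 (20.4 ± 2.66), which encodes NRF2, were highest per kb. Of the 12 Txnip regulators, alpha-arrestins and glucose carriers, 11 were tested, and the glucose carrier Slc2a3 (1308 ± 41.1 CPM), Arrdc5 (111 ± 3.56) and Arrdc3 (101 ± 3.34) were highest per kb.

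Txndc8 was most like Crip2 (Pearson r of log2 CPM 0.964), Fth1 (0.959) and 4933405O20Rik (0.948) over the 11 samples, among 9406 genes with a mean of at least 10 CPM. Fth1, the ferritin heavy chain, was at 150.98 to 166.1 CPM in Irp1-/-, 143.6 to 150.87 in WT and 123.8 to 142.3 in Irp2-/- samples, with no overlap between the 3 groups, as 6.63% of all genes had none in Irp1-/- and 9.23% in Irp2-/- against WT. It was not called against WT in either knockout (edgeR adjusted p = 0.289 and 0.168) and was called between them (edgeR adjusted p = 0.00499). Crip2 was at 77.2 to 81.6, 72.2 to 76.3 and 67.6 to 74.9 CPM in the same order. Both had the order of group means that Txndc8 had, but they were picked for their correlation with it over these same samples. That order and the lack of overlap in Fth1 are therefore no independent evidence. The shares given beside Fth1 are for all genes and for each comparison by itself.

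Among the genes most like Txndc2 were Gm6812 (0.915) and Iqcf3 (0.911). Txnrd3 was most like Rnf19a (0.960), Fbxw10 (0.957) and Mroh2b (0.954). These 3 were abundant, at 607 ± 30.0, 328 ± 22.3 and 967 ± 36.6 CPM in WT. Txn1 was most like Ceacam2 (0.919), Gm16982 (0.910) and Tspyl2 (0.903), among 9407 genes. The points of these correlations are the same 11 libraries and share their scaling, and the genes were picked as the highest of all compared, so they are given as a description.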

How the data were processed

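The authors deposited a table of whole-number read counts per gene for 11 samples, made from poly(A)-enriched RNA of whole testis with a stranded kit and 50-base paired-end reads, by an nf-core RNA-seq pipeline on mm10 with the Illumina iGenomes annotation; per the labels bcl2fastq 2.20.0.422 and DESeq2 were used. The counter and its strand setting are not given in the sources used here. From these counts, CPM values were computed with TMM-scaled library sizes over the 11 samples. Genotypes were compared in pairs with the quasi-likelihood test of edgeR 4.0.16 (R 4.3.3) after filterByExpr, with no covariate, Benjamini-Hochberg adjustment over all genes tested and a threshold of 0.05. This was tested on simulated data. Alternatives were RLE scaling, no filter, at least 10 counts in every sample, DESeq2 1.42.0, all samples in 1 fit, the replicate number as a block and each sample left out; merged exon lengths and group ratios without Txnip were added after the data were seen. Levels between genes were divided by the length of the longest coding transcript of GENCODE M21 (GRCm38, the assembly of mm10), from which positions and sequences also come.

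The members and lists were chosen with earlier results of these data known. Named were the 8 members, called genes and the 3 highest per kb of each related list, the targeted genes, for Txndc2, Txndc8, Txnrd3 and Txn1 the 3 genes of highest Pearson r, and the tested neighbours of Txn1 and Txndc8; some results under this rule are not reported here. Depth of 15902473 to 22451417 counts per sample gave 38 counts for the lowest member value. Replicates within a genotype differed by more than sampling noise, since chi-square divided by its degrees of freedom was 2.00 to 7.05 for every pair.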

Additional observations from a re-analysis of the deposited data

Results flagged for a closer look

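The effects of the 2 knockouts differed for 4 genes in the direct edgeR comparison of Irp1-/- with Irp2-/- testes, which is the test of that difference, while none of the 4 was called in either knockout against WT. The log2 fold change was 0.25 for Txndc8 (adjusted p = 0.0134), 0.31 for Prdx4 (adjusted p = 0.0325), 0.21 for Sepp1 (adjusted p = 0.0318) and 0.22 for Idh1 (adjusted p = 0.0266), all higher in Irp1-/- and in 4 of 4 Irp1-/- samples above every Irp2-/- sample. The 4 come from the 8 members and 81 related genes tested, a share of 4.49% where 4.69% of all genes were called, and each was lost without at least 1 of the 7 samples. No member had a sample standing apart from its group in the 16 groups of 4 samples examined, where 0.8 would be expected by chance. Finding 0 where 0.8 was expected does not show that the samples of a group were alike. The Irp2-/- groups, which are smaller, were not examined.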

How the results depend on the processing

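Scaling, count filters and DESeq2 changed none of the counts of called members (0, 0 and 1) or related genes (0, 0 and 3). With all 11 samples in 1 fit the counts were equal too, but Idh1 and Sepp1 gave way to G6pd2 and Pdia4. Over the samples left out in turn, members called ranged from 0 to 0 in Irp1-/- against WT, 0 to 1 in Irp2-/- against WT and 0 to 1 between the knockouts, and related genes from 0 to 1, 0 to 1 and 0 to 5. Glrx2 was the related gene called in Irp1-/- against WT without Irp1-/- replicate 2, and Prdx4 that in Irp2-/- against WT without Irp2-/- replicate 1. Of the recomputed member log2 fold changes 303 kept their direction and call, 11 changed sign, 2 gained a call and 3 lost one. Without 1 sample, Txnrd3 in Irp1-/- against WT ranged from -0.029 to 0.0082 and Txndc2 from -0.080 to 0.0020, Txn1 in Irp2-/- against WT from -0.11 to 4.66e-05 and Txnrd1 from -0.012 to 0.072, and between the knockouts Txnip from -0.00036 to 0.12 and Txnrd1 from -0.0018 to 0.049. The causes were not tested.

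The replicate numbers gave no clear sign of pairing the samples. Correlations of same-numbered samples were from -0.0099 to 0.078, each under 0.1, and those of differently numbered samples from -0.13 to 0.084. So few same-numbered samples cannot exclude a weak pairing. With the replicate number as a block, 439, 132 and 852 genes were called against 164, 196 and 763, with 1, 2 and 1 residual degrees of freedom. In that fit the genotype effect rests only on replicate numbers found in both groups. These are 1 and 2 in both comparisons of Irp1-/-, and 1 to 3 in Irp2-/- against WT. WT replicates 1 and 2 were the lowest of all samples for Txnip, Sepp1 and Idh1. Under this block 1 member (Txnip, log2 fold change 0.22, edgeR adjusted p = 0.0349) and 5 related genes were called in Irp1-/- against WT, Txn2 there was at -0.010, Txnip between the knockouts at -0.14, and Txndc8 there at 0.22 (edgeR adjusted p = 0.0498), with Prdx4 not called and G6pd2 called in its place. The count over all genes was lowest at 55 in Irp1-/- against WT (without Irp1-/- replicate 1), 118 in Irp2-/- against WT and 414 between the knockouts (both without Irp2-/- replicate 2). Without Txnip the spermatid to general ratio per kb was 16.4, 15.3 and 15.4 in WT, Irp1-/- and Irp2-/-, and over merged exons 16.8, 15.1 and 15.1. Txnrd2, the member of fewest counts, had the widest interval in each comparison.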
